A study of Mus musculus with 42 samples.

Results

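Gene expression in the aorta of mice with diabetic macroangiopathy that were treated with SHENQI compound (SHENQI group) was compared with that of untreated mice of the same model (macroangiopathy group). The comparison holds the 3 SHENQI aorta arrays and the 3 macroangiopathy aorta arrays among the 42 arrays of the series, chosen by the sample titles alone. Both groups were male KK/Ay mice, which are obese and diabetic and have the yellow allele of nonagouti, and both had been given a high-fat diet and drinking water with L-NAME, which blocks nitric oxide synthase. The SHENQI group then received an extract of SHENQI compound by gavage and the macroangiopathy group received saline by gavage. SHENQI compound is a mixture of Chinese herbs that includes ginseng, rehmannia, Chinese yam, hawthorn, salvia and rhubarb, so no single active substance is given. The question of the comparison is which genes differ in the vessel when the model is treated with the compound. The model combines a strain, a diet and a drug that both groups shared. The methods take mice at random from each group and do not mention pooling, so each array is read as 1 mouse. With 3 arrays per group the number of arrays limits the precision of each value, and p-values measure only the spread between these samples.

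The aortic wall is made of an endothelium, layers of smooth muscle between elastic plates, and an outer coat with fibroblasts, nerves and small vessels. In mice it lies in perivascular fat that resembles brown fat around the chest, near lymph nodes, and its root joins the heart. Diabetic macroangiopathy is a disease of such large arteries, in which endothelial damage, lipid accumulation and inflammation of the wall come together.

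The values are log2 normalized intensities of single-colour Agilent arrays, averaged over the probes of a gene, and levels are compared only within a gene. The strain was checked first: the nonagouti gene, written a, which the yellow allele drives in all tissues, read 5.26 to 5.39 on the 3 healthy C57 aorta arrays, 8.87 to 9.58 on the SHENQI arrays and 9.01 to 9.17 on the macroangiopathy arrays. Lep, which encodes the fat hormone leptin, read 5.14 to 6.10 in healthy aorta, 7.97 to 8.60 in SHENQI and 7.18 to 8.72 in macroangiopathy aorta. The aorta label was borne out by Myh11, the myosin heavy chain of smooth muscle, at 13.13 to 15.37 on the SHENQI and 14.82 to 15.38 on the macroangiopathy arrays. Fat of the brown type was part of every sample, with Ucp1, the uncoupling protein of brown fat, at 15.55 to 16.79 on the SHENQI and 15.99 to 16.91 on the macroangiopathy arrays.

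The 6 arrays were uneven. Between 57.94% and 70.80% of the probes were well above background on the SHENQI arrays and between 68.44% and 72.17% on the macroangiopathy arrays, with the lowest share on SHENQI array 1. The median standard deviation of a gene was 0.31 among the SHENQI arrays and 0.16 among the macroangiopathy arrays. Each SHENQI array correlated more closely with a macroangiopathy array than with another SHENQI array: array 1 with macroangiopathy array 2 (r = 0.973 across genes), array 2 with macroangiopathy array 3 (r = 0.971) and array 3 with macroangiopathy array 1 (r = 0.980), while the SHENQI arrays correlated with one another at 0.908 to 0.946. These correlations are across genes, which are not independent replicates. Slide here stands for a shared scan date in the file headers, by which arrays were assigned to slides. The groups lay on different slides, with SHENQI array 1 on slide 1, SHENQI arrays 2 and 3 on slide 2, and all 3 macroangiopathy arrays on slide 6. Slide and treatment thus cannot be told apart in this comparison.

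Few genes separated the groups. Of 15387 genes tested with limma, 252 (1.64%) had an unadjusted p below 0.05, with 119 (0.773%) higher and 133 (0.864%) lower in the SHENQI group, and 0 passed after Benjamini-Hochberg adjustment, with a smallest adjusted p = 0.999 in limma. The verbs rose and fell are used here only for genes with an unadjusted p below 0.05, and none of those genes passed after adjustment. Each had an adjusted p = 0.999 in limma. Unadjusted p-values of single genes are not printed, because an exact permutation test of 3 against 3 arrays cannot go below 0.1, and differences are given with their standard error (SE) or 95% interval. The arrays of the groups did not overlap in 1015 genes (6.6%), 556 of them (3.61%) higher and 459 (2.98%) lower in the SHENQI group, and 233 genes (1.51%) met both conditions. Log2 fold changes had a median size of 0.51 among the 252 genes and 0.13 over all genes tested. Of 104 genes that differed by at least 1 log2 unit, 18 were among the 252. In 24 of the 252 genes no array of the lower group was well above background, and 189 were well above background on all 6 arrays.

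**Figure D1:**
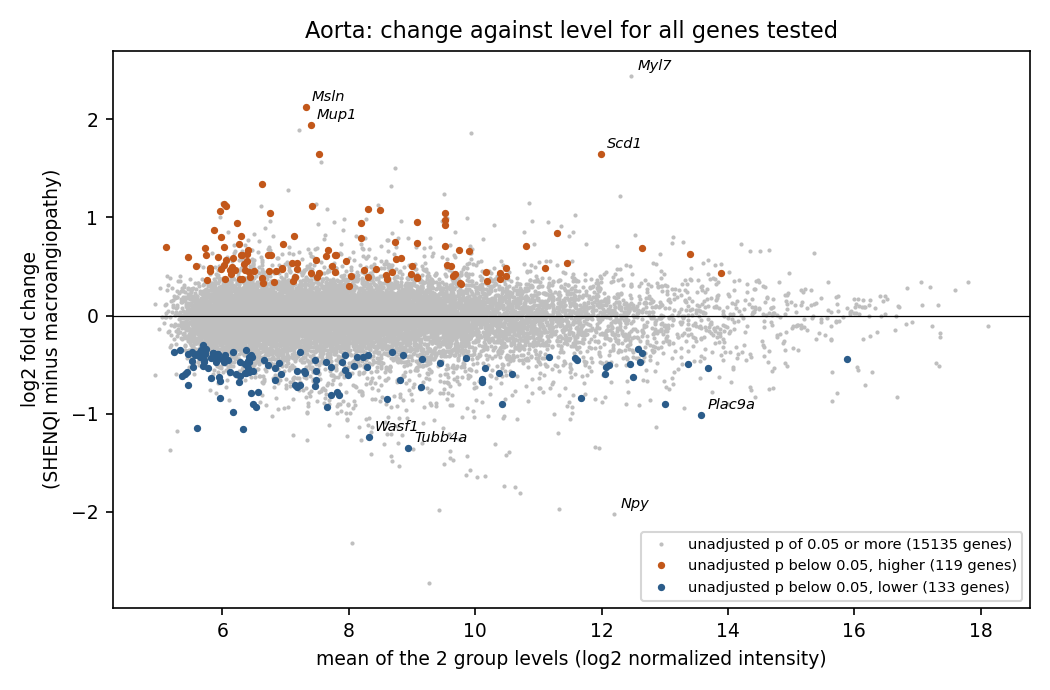
Log2 fold change in aorta (SHENQI minus macroangiopathy, vertical axis) against the mean of both group levels (log2 normalized intensity, horizontal axis) for the 15387 genes tested, with the 119 genes higher and the 133 lower at an unadjusted p below 0.05 in colour. Myl7 and Npy, with log2 fold changes of 2.44 and -2.03, are drawn in grey because their p lay above the threshold.

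The largest increase in fat metabolism was that of Scd1, stearoyl-CoA desaturase, which makes monounsaturated fatty acids. It read 12.89, 12.16 and 13.38 on SHENQI arrays 1 to 3 and 11.61, 11.30 and 10.58 on macroangiopathy arrays 1 to 3. All 3 SHENQI arrays lay above all 3 macroangiopathy arrays, and the difference was 1.65 (SE 0.39, 95% interval 0.71 to 2.59), or 3.13-fold, with an adjusted p = 0.999 in limma. The rest of the fatty acid synthesis list did not move with it: Scd1 was the only one of 17 members with an unadjusted p below 0.05, and the median log2 fold change of the list was 0.09, against -0.01 over all genes. Fasn, fatty acid synthase, read 13.58, 11.52 and 13.12 on the SHENQI arrays and 13.25, 13.04 and 11.52 on the macroangiopathy arrays, a spread that covers both groups. Scd2, a second desaturase, differed by -0.35 and did not pass. In the healthy C57 aorta Scd1 read 13.05, 16.64 and 16.82, and in untreated diabetic KK/Ay aorta 12.05, 11.41 and 11.23, so the SHENQI arrays lay above the macroangiopathy and untreated diabetic arrays and below healthy arrays 2 and 3. Scd1 is abundant in fat, and the mean level of 20 adipocyte genes was 12.63, 11.92 and 12.54 on the SHENQI arrays and 12.75, 11.75 and 11.30 on the macroangiopathy arrays. Macroangiopathy array 1, with the highest adipocyte level of the 6, had less Scd1 than every SHENQI array. Within each group, however, the array with the lowest adipocyte level also had the lowest Scd1. The part of fat content in the Scd1 difference was not tested. Angptl4, which inhibits lipoprotein lipase, also rose, by 0.44 (SE 0.17), at 14.06, 14.29 and 13.97 against 13.91, 13.55 and 13.54, with SHENQI array 3 close to macroangiopathy array 1. Slc27a2, a fatty acid transport protein with acyl-CoA synthetase activity, rose by 0.73 (SE 0.30), although its groups overlapped. Of the 22 genes for lipid uptake and storage tested, 1 rose and 0 fell, and of the 27 genes for fatty acid oxidation 0 passed at either threshold in limma.

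Of the leading increases, Mup1, Mup4 and Serpina3k are known from the liver, but no list of liver genes was fixed or tested. Mup1 and Mup4 encode major urinary proteins, lipocalins that the liver secretes and that carry pheromones in urine. Mup1 read 8.70, 9.59 and 6.81 on SHENQI arrays 1 to 3 and 6.16, 6.55 and 6.57 on the macroangiopathy arrays. The difference of 1.94 (SE 0.67, 95% interval 0.32 to 3.56) was thus carried by SHENQI arrays 1 and 2, and array 3 lay close to the macroangiopathy arrays. Mup4 followed the same order, with 8.69, 9.27 and 7.08 against 6.70, 6.70 and 6.71, a difference of 1.64 (SE 0.54, 95% interval 0.35 to 2.94). Without SHENQI array 1, neither Mup1 nor Mup4 passed. Serpina3k, a liver inhibitor of serine proteases, rose by 1.06 (SE 0.23), from 5.49, 5.32 and 5.47 to 6.70, 6.75 and 6.01, and both of its probes moved alike, by 0.99 and 1.13. Other secreted liver proteins, looked up after these values had been seen, did not pass: log2 fold changes were 0.12 for Ahsg, 0.12 for Apoc3, -0.02 for Serpina1b and -0.30 for Trf. The healthy C57 aorta, from another strain, had Mup1 at 11.10, 13.44 and 13.03, above all 6 arrays.

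Mup genes are near copies of one another, so the probe sequences show how far a signal can be assigned. The longest run that the Mup1 probe shares with a probe of another gene on the array is 31 bases of the Mup8 probe, and that run is set in capitals in both probes, written 5′ to 3′.
Mup1: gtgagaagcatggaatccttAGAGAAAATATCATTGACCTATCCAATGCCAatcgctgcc
Mup8: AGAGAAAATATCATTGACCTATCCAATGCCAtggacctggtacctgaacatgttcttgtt
On the mm9 build of the array design, the Mup1 probe spans chr4:60511965-60512188 and the Mup8 probe spans chr4:60232592-60232774, both on the minus strand of the Mup cluster, and each span is longer than the 60 bases of the probe. The Mup8 probe read 5.71, 6.21 and 5.37 on the SHENQI and 5.06, 5.39 and 5.15 on the macroangiopathy arrays, was well above background on 1 of the 6 arrays, and was not tested. Mup3 was tested and differed by 0.15 and did not pass. Mup5 read 6.43, 6.97 and 5.79 on the SHENQI arrays and 5.41, 5.64 and 5.68 on the macroangiopathy arrays, highest on SHENQI array 2 as were Mup1 and Mup4, and did not pass the filter on dim probes. Which Mup gene a signal came from is therefore uncertain.

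Other increases were smaller and more even across the arrays compared. Cyp2f2, a cytochrome P450 known from airway cells and liver, read 7.84, 7.83 and 8.26 against 6.58, 7.10 and 6.90, a rise of 1.12 (SE 0.20). Within some other aorta groups Cyp2f2 varied widely, at 14.59, 6.85 and 6.18 with rosiglitazone and 10.65, 6.79 and 6.78 with huoxue. Healthy aorta was even, at 9.30, 9.56 and 9.33. Sucnr1, the receptor for succinate, rose by 1.09 (SE 0.28), at 8.63, 9.08 and 8.84 against 8.35, 7.46 and 7.49, with macroangiopathy array 1 close to the SHENQI range. Pfdn1, a subunit of the prefoldin chaperone, rose by 0.95 (SE 0.18), and its 9.58, 9.70 and 9.37 lay well clear of 8.61, 8.82 and 8.36. Pfdn1 and Serpina3k kept an unadjusted p below 0.05 in all 24 alternatives of processing and array choice, which no other rising gene among the 12 leading ones did. Their choice on these arrays favours that, and the aorta groups lay on separate slides in every alternative. Pfdn1 read 9.33 on diabetic array 1 (slide 1), 8.65 and 8.53 on diabetic arrays 2 and 3 (slide 4) and 9.43 on yangyinyiqi array 1 (slide 6). Nnat, the imprinted gene for neuronatin, rose by 0.97 (SE 0.35), but its lowest SHENQI array, 9.81, lay only just above macroangiopathy array 1 at 9.79. Anxa8, a calcium-dependent phospholipid-binding annexin, rose by 1.07 (SE 0.29), with 9.64, 8.54 and 8.93 against 8.09, 8.04 and 7.76. On the rosiglitazone aorta arrays Anxa8 also varied widely, at 12.55, 7.67 and 7.45, but on the diabetic ones it read 9.10, 8.47 and 8.76.

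Fbxw13, an F-box protein gene, and Banf2, a relative of the barrier-to-autointegration factor, also rose. Fbxw13 read 6.70, 6.54 and 6.53 against 5.44, 5.73 and 5.18, with 1 of 3 macroangiopathy arrays well above background, and the difference was 1.14 (SE 0.18). Banf2 rose by 0.94 (SE 0.20), at 7.01, 6.34 and 6.74 against 5.75, 5.79 and 5.73, and was well above background on all 6 arrays. Neither group overlapped the other in either gene.

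**Figure D2:**
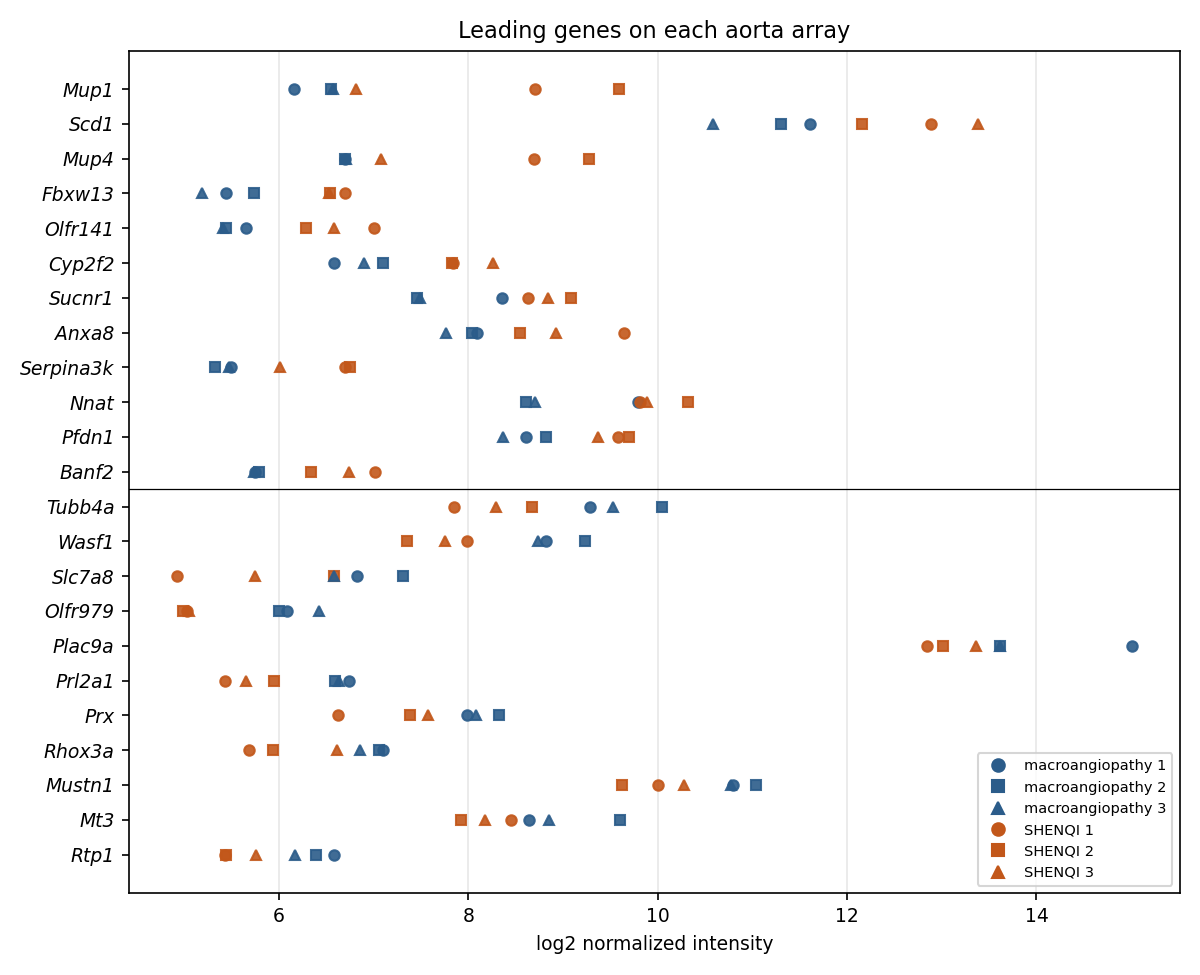
Log2 normalized intensity (horizontal axis) of the 12 largest increases (upper block) and 11 of the 12 largest decreases (lower block) on each of the 6 aorta arrays, with colour for the group and symbol for the array number. The groups do not overlap in any of the 23 genes plotted, which was a condition of choosing them, and the Mup1 and Mup4 increases are carried by SHENQI arrays 1 and 2.

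Among the decreases, Tubb4a and Wasf1 were the largest. Tubb4a, a beta-tubulin of nerve cells, read 7.85, 8.67 and 8.29 on the SHENQI arrays and 9.28, 10.04 and 9.53 on the macroangiopathy arrays, and fell by 1.35 (SE 0.28, 95% interval of the difference -2.03 to -0.66). Wasf1, a member of the WAVE complex that drives actin branching, read 7.99, 7.35 and 7.75 against 8.82, 9.23 and 8.74, and fell by 1.24 (SE 0.22). Prx, which encodes periaxin of myelinating Schwann cells, fell by 0.94 (SE 0.27), at 6.62, 7.38 and 7.57 against 7.98, 8.32 and 8.08. Prx was the only one of 15 peripheral nerve and Schwann cell genes with an unadjusted p below 0.05. Other myelin genes of that list did not pass, with log2 fold changes of -0.12 for Mbp and -0.21 for Pmp22. The list as a whole had a median log2 fold change of -0.26 and ran from -2.03 to 0.04.

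The other leading decreases had varied known roles. Mustn1, a nuclear protein of developing muscle and bone, read 9.62 to 10.28 on the SHENQI arrays and 10.77 to 11.04 on the macroangiopathy arrays, and fell by 0.90 (SE 0.21). Mt3, a metal-binding metallothionein, fell by 0.85 (SE 0.29), with 8.45, 7.92 and 8.17 against 8.64, 9.60 and 8.85. Plac9a read 12.84, 13.01 and 13.36 against 15.01, 13.62 and 13.62, and its fall of 1.01 (SE 0.41) was largest against macroangiopathy array 1. Slc7a8, an exchanger of neutral amino acids, fell by 1.15 (SE 0.43) with 1 of 3 SHENQI arrays well above background, and its highest SHENQI array and lowest macroangiopathy array both read 6.58 at 2 decimals. Prl2a1, of the prolactin family, and Rhox3a, a reproductive homeobox gene, fell by 0.98 (SE 0.17) and 0.93 (SE 0.26).

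Several leading genes were chemosensory and read near background in the lower group. Olfr979, an olfactory receptor gene, had the smallest unadjusted p of all genes tested. It read 6.08, 6.0 and 6.42 on the macroangiopathy arrays and 5.03, 4.98 and 5.05 on the SHENQI arrays, none of which was well above background, so it was at least 2.21-fold lower in the SHENQI group. Rtp1, which helps olfactory receptors to reach the cell surface, was at least 1.79-fold lower, and Olfr141 was at least 2.17-fold higher in the SHENQI group, each with no array of the lower group well above background. These bounds set the mean of the brighter group against the higher of the dim probe's own value and the lowest signal that counted as well above background on each array. Of 186 olfactory receptor genes tested, 17 (9.14%, against 1.64% of all genes) passed at the unadjusted threshold, 4 higher and 13 lower. Among the 89 of them that were well above background on all 6 arrays 5 passed. Over genes of every kind that met this condition, 189 of 13561 passed. The family was counted after its values had been seen. The group means of those 17 lay between 5.02 and 7.46, and 8 of them had no array of a group well above background. The filter keeps some genes for the signal of 1 group alone, although such genes need not differ. It can thus affect the share over all 186, which is no result about the family. The count of 17 became 31 with the processed signal, 28 with the authors' value table, 25 with slide 1 as a term over the 21 aorta arrays and 12 with slide as a random block.

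Slide moved with these differences. Each of the 15 other aorta arrays of the series was placed by whether it lay nearer to the SHENQI mean or to the macroangiopathy mean, gene by gene, over the 233 genes that did not overlap and passed at the unadjusted threshold. Diabetic array 1, on slide 1 beside SHENQI array 1, lay nearer to the SHENQI mean in 195 of the 233 genes (83.7%), and healthy arrays 1 and 3 on that slide in 173 (74.2%) and 180 (77.3%). Healthy array 2, on slide 2 with SHENQI arrays 2 and 3, was nearer to the SHENQI mean in 149 (63.9%). In contrast, yangyinyiqi array 1, on slide 6 with the macroangiopathy arrays, was nearer to the SHENQI mean in only 33 (14.2%). Diabetic arrays 2 and 3, on slide 4, were nearer in 112 (48.1%) and 118 (50.6%). Over all genes tested the share was 54.1% to 62.7% for the 4 arrays on slides 1 and 2 and 37.9% for yangyinyiqi array 1. Huoxue array 3 and the 3 rosiglitazone arrays, on slide 10, were also near the macroangiopathy mean, at 13.3% to 32.6% of the 233 genes. Since slides also differ in which groups they hold, treatment and slide cannot be told apart in these shares either. Fits with slide 1 as a term or slide as a random block cannot decide the part of slide in the differences. The term covers only SHENQI array 1 among the arrays compared, and the block leaves the groups on separate slides.

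**Figure D3:**
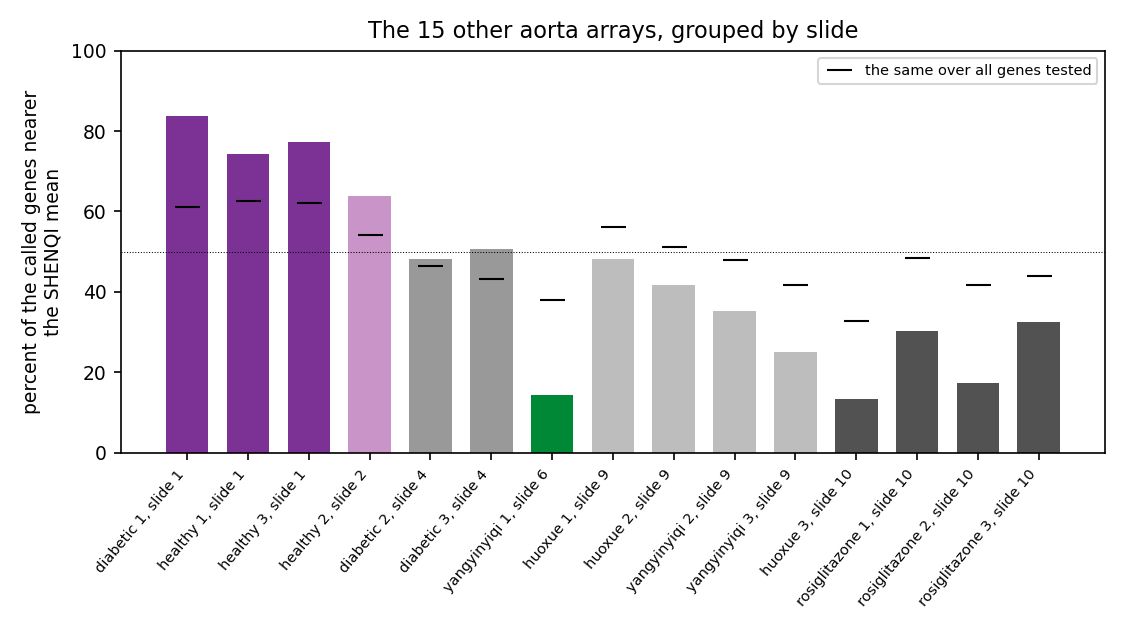
Percent of the 233 genes called without overlap in which each of the 15 other aorta arrays lay nearer to the SHENQI mean (bars, coloured by slide), with the same share over all 15387 genes as a black tick. Arrays on slides 1 and 2, which hold the SHENQI arrays, lie at 63.9% to 83.7%, and yangyinyiqi array 1 on slide 6, which holds the macroangiopathy arrays, lies at 14.2%.

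Values of single genes on these arrays are given by slide. Wasf1 read 7.18 on diabetic array 1 and 7.19 to 7.44 on the 3 healthy arrays, all on slides 1 and 2, and 8.98 on yangyinyiqi array 1 on slide 6. On other slides it read 7.94 and 8.06 in diabetic arrays 2 and 3 and 7.17 and 9.85 in yangyinyiqi arrays 2 and 3, which span both groups. For Olfr979 the values on slides 1 and 2 were 4.74 to 5.52, and yangyinyiqi array 1 read 6.22, with 5.82 and 6.54 on yangyinyiqi arrays 2 and 3. For Scd1, the values on slides 1 and 2 were 12.05 on diabetic array 1 and 13.05, 16.64 and 16.82 on healthy arrays 1 to 3, which are of another strain. Yangyinyiqi array 1 on slide 6 read 11.98. That array and diabetic array 1 lay below every SHENQI array. When slide 1 was fitted as a batch term over all 21 aorta arrays, 10 of the 24 leading genes kept an unadjusted p below 0.05 in limma: Mup1, Scd1, Mup4, Sucnr1, Serpina3k, Pfdn1 and Banf2 higher, and Olfr979, Rhox3a and Rtp1 lower. Tubb4a, Wasf1, Cyp2f2 and Anxa8 were among the 14 that did not. The fit of the 21 arrays without that term kept an unadjusted p below 0.05 in 14 of the 24. Even with the term, SHENQI arrays 2 and 3 and the macroangiopathy arrays remain on separate slides, so genes that kept it are not cleared of a slide difference.

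Markers of immune cells, heart muscle and nerve varied widely from mouse to mouse within both groups. The mean level of 21 lymphocyte genes was 10.43 on SHENQI array 2 and 9.28 on macroangiopathy array 3, and 6.54 to 6.88 on the other 4 arrays. Cd79b, a B cell receptor subunit, read 8.04, 14.23 and 9.16 on the SHENQI arrays and 8.96, 8.94 and 13.50 on the macroangiopathy arrays. Cd3d of the T cell receptor read 6.54, 12.97 and 6.81 against 7.08, 6.55 and 9.74. Both groups thus held 1 array with high lymphocyte genes, and 0 of 21 passed at either threshold in limma. The 21 macrophage genes stood highest on the same arrays, at 10.28 and 9.94 against 8.23 to 8.87 elsewhere, and 0 passed. Marco, a scavenger receptor of macrophages, read 13.88 on SHENQI array 2 and 13.87 on macroangiopathy array 3 but 6.59 to 7.40 on the other 4. In bulk tissue, fewer cells of a type and less RNA per cell cannot be told apart.

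Cardiac muscle genes split the arrays in another way. Their mean level over 16 genes was 10.18, 8.23 and 8.66 on the SHENQI arrays and 10.05, 8.67 and 6.79 on the macroangiopathy arrays, so array 1 of each group was highest and macroangiopathy array 3 lowest. Myl7, the regulatory light chain of atrial myosin, read 15.24, 13.09 and 12.75 against 14.39, 13.27 and 6.10. Its log2 fold change of 2.44, among the largest of all genes, did not pass, and macroangiopathy array 3 alone was low. Of the 16 genes, 0 passed at either threshold in limma. Casq1, the calcium store protein of skeletal muscle, was the 1 of 20 skeletal muscle genes that fell, by 0.71 (SE 0.23), and 0 rose.

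Sympathetic nerve genes were lowest on SHENQI array 3 and next lowest on SHENQI array 2 in most cases. Th, tyrosine hydroxylase, the first enzyme of noradrenaline synthesis, read 13.23, 10.10 and 6.09 on SHENQI arrays 1 to 3 and 10.67, 12.92 and 11.24 on the macroangiopathy arrays. Npy, a peptide that these nerves release, read 14.35, 11.78 and 7.43 against 12.34, 14.56 and 12.73. Dbh and the noradrenaline transporter Slc6a2 had the same order among the SHENQI arrays, at 12.12, 9.50 and 6.37 for Dbh and 12.89, 11.36 and 6.78 for Slc6a2, against 10.09, 11.91 and 10.90 and 10.83, 13.34 and 12.77. SHENQI array 3 lay below every macroangiopathy array in all 4 genes, and array 2 did so in Th, Npy and Dbh, while array 1 was among the highest. The log2 fold changes, -1.80 for Th and -2.03 for Npy, did not pass.

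**Figure D4:**
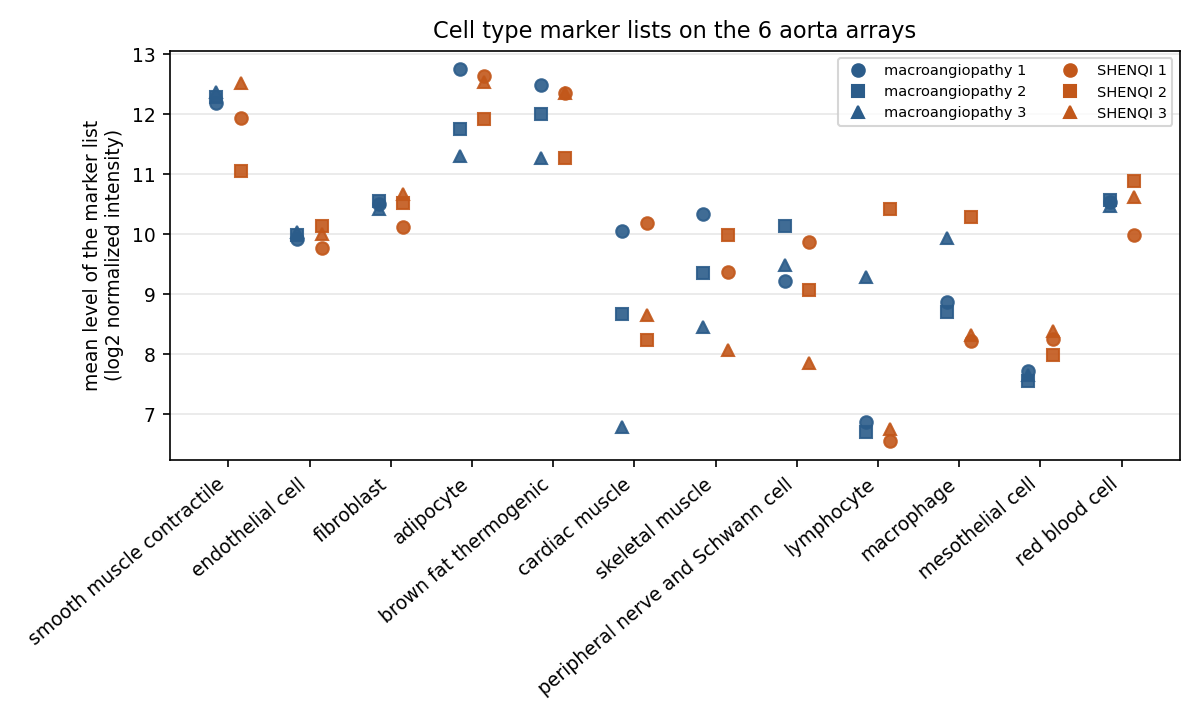
Mean log2 normalized intensity of 12 cell type marker lists (vertical axis) on the 3 SHENQI and 3 macroangiopathy aorta arrays, with colour for the group and symbol for the array number. Lymphocyte and macrophage lists are highest on SHENQI array 2 and macroangiopathy array 3, and the mesothelial list is the 1 in which all SHENQI arrays lie above all macroangiopathy arrays.

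Mesothelial genes, which mark the lining of the chest and abdominal cavities, were the only marker list of the 12 plotted in which the 3 SHENQI arrays lay above the 3 macroangiopathy arrays, at 8.24, 7.99 and 8.39 against 7.72, 7.56 and 7.65. Msln, mesothelin, rose by 2.12 (SE 0.71, 95% interval 0.42 to 3.82), or 4.36-fold, the largest rise among the listed genes. It read 9.39, 6.78 and 8.96 on the SHENQI arrays and 6.88, 6.18 and 5.71 on the macroangiopathy arrays, so SHENQI array 2 lay within the macroangiopathy range. Wfdc2, a secreted protein of mesothelium and epithelium, showed the same order, at 9.85, 6.44 and 8.18 against 6.60, 6.31 and 5.87, with a log2 fold change of 1.89 that did not pass. The call of Msln was lost without any 1 of SHENQI arrays 1 or 3 and macroangiopathy arrays 2 or 3. The difference in the mean of the list leans most on Msln and Wfdc2. Log2 fold changes were 0.30 to 0.54 for Efemp1, Gpm6a, Krt19, Krt7 and Krt8, but -0.27 for Igfbp6 and -0.25 for Krt18. Slpi, at 0.07, read 9.97 on SHENQI array 2 and 10.29 on macroangiopathy array 3, the arrays with the high lymphocyte genes. Of 16 mesothelial genes, 10 passed the filter on dim probes and 1 of those rose. The 6 that did not pass the filter were Wt1, Upk3b, Upk1b, Muc16, Lrrn4 and Bnc1. Muc16 read 7.39, 5.39 and 7.43 on the SHENQI arrays and 5.60, 5.20 and 5.24 on the macroangiopathy arrays, high on SHENQI arrays 1 and 3 as Msln was, and Lrrn4 read 6.21, 5.27 and 5.94 against 5.31, 5.49 and 5.39, each well above background on 2 SHENQI and 0 macroangiopathy arrays. The levels were 5.80, 5.51 and 5.88 for Wt1 against 5.83, 5.39 and 5.41, and 6.09, 5.02 and 6.83 for Upk3b against 5.34, 5.09 and 6.19. Whether the amount of this lining in the samples plays a part in the result was not tested.

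None of the listed smooth muscle, endothelial, fibroblast, collagen and elastic fibre genes of the vessel wall passed. The 24 smooth muscle contractile genes had a median log2 fold change of -0.50, with a mean level of 11.94, 11.05 and 12.52 on the SHENQI arrays and 12.18, 12.28 and 12.37 on the macroangiopathy arrays, and 0 passed at either threshold in limma. The median over the smooth muscle contractile list was -0.11 without SHENQI array 2, which had the high lymphocyte genes, and -0.90 without SHENQI array 3. Acta2, smooth muscle actin, read 12.56, 11.30 and 13.20 against 12.67, 12.76 and 12.93. The 24 endothelial genes had a median log2 fold change of 0.00, and Cdh5, the cadherin of endothelial junctions, read 8.60, 9.03 and 9.18 against 8.82, 8.84 and 8.68. Fibroblast genes (16), with a median of 0.01, had 0 that passed, as had 26 collagen genes with a median of -0.13 and 19 elastic fibre genes with a median of -0.16. Adipocyte genes (20) had a median of 0.46 and each of them a log2 fold change above 0, from 0.02 to 0.83, yet 0 passed, and macroangiopathy array 1 lay within or above the SHENQI range for each of them. Adipoq, adiponectin, read 15.14, 14.57 and 15.26 against 15.14, 14.18 and 13.65.

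Across all 42 lists of marker and pathway genes, 841 different genes were tested and 11 of them (1.31%, against 1.64% of all genes) passed at the unadjusted threshold, 6 higher and 5 lower, so listed genes did not stand out. The lists with no gene that passed included leukocyte adhesion molecules (17 genes), NF-kB family and feedback (17), chemokines and cytokines (24), nitric oxide and endothelin (18), renin-angiotensin (9), insulin and PI3K-Akt signalling (31), TGF-beta and Smad (24), complement (19), Nrf2 and antioxidant genes (24), cholesterol synthesis and LDL receptor (23), oxidative phosphorylation (45) and proteasome subunits (32). The medians of these 12 lists ran from -0.22 to 0.09. In the interferon response list 2 of 32 genes rose: Ifit3 by 0.41 (SE 0.14), at 9.94, 9.92 and 9.72 against 9.33, 9.56 and 9.46, and Gbp2, a guanylate-binding protein, by 0.48 (SE 0.20). Isg15 and Ifit1, other interferon-induced genes, had log2 fold changes of 0.07 and 0.17 and did not pass. Of 23 heat shock genes, 1 fell: Hspa8, the constitutive Hsp70 chaperone, by 0.63 (SE 0.17), at 11.91, 12.21 and 12.45 against 12.76, 12.84 and 12.85. The heat shock list as a whole had a median of -0.30. Alas2, which starts haem synthesis in red cells, fell by 0.54 (SE 0.15), while Hba-a1, an alpha globin, read 16.72, 17.91 and 17.11 against 17.65, 17.30 and 17.45. Errfi1, a feedback inhibitor of the EGF receptor among the 17 glucocorticoid-responsive genes, fell by 0.64 (SE 0.24).

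Genes that the study names in connection with its modules and drugs did not pass. The paper names Mcm8, Irf7, Cdk7 and Nedd4l for SHENQI compound from its module and drug-target analysis, which this comparison in aorta does not repeat. It names Per1 for the yangyinyiqi part and Smad7 and Dbp for the huoxue part, not for the whole compound. Irf7, an interferon regulatory factor, read 7.01, 7.33 and 7.36 on the SHENQI arrays and 7.09, 7.03 and 7.28 on the macroangiopathy arrays (log2 fold change 0.10, 95% interval -0.29 to 0.49). Mcm8, a helicase of DNA repair, read 6.81, 6.68 and 6.55 against 6.42, 6.37 and 6.35, without overlap, and differed by 0.30 (95% interval -0.03 to 0.63). Intervals were -0.50 to 0.16 for Cdk7, a kinase of transcription and the cell cycle, -0.65 to 0.74 for the ubiquitin ligase Nedd4l and -0.27 to 0.76 for Pik3r1, the regulatory subunit of PI3K. For the clock genes Per1 and Dbp the intervals were -0.52 to 0.84 and -0.46 to 1.78. Smad7, an inhibitor of TGF-beta signalling, read 6.92, 9.10 and 9.46 against 8.98, 8.63 and 8.79, with SHENQI array 1 far below the rest. Its difference of -0.31 turned to 0.48 without that array, which passed at the unadjusted threshold.

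Skeletal muscle of the same groups was used to see where aorta differed. A model with both tissues tested 15671 genes for a difference between the response in aorta and that in muscle, in which 302 (1.93%) had an unadjusted p below 0.05 and 0 passed after adjustment. In muscle alone 482 of 15671 genes (3.08%) passed at the unadjusted threshold and 0 after adjustment. The 5 leading aorta genes with the smallest p for that difference were Banf2, Fbxw13, Olfr141, Olfr979 and Rtp1. Leading genes were chosen for a difference without overlap on these same aorta arrays. That choice favours a difference from muscle, so their values here are not separate support for one. Banf2 differed between SHENQI and macroangiopathy by 0.94 in aorta and -0.36 in muscle, a difference of 1.30 (SE 0.22, adjusted p = 0.985 in limma). Fbxw13 followed with a difference of 1.35 (SE 0.25, adjusted p = 1.0 in limma), with 1 of 3 macroangiopathy aorta arrays and 3 of 6 muscle arrays well above background. No value is given for the other 3, because Olfr979 and Rtp1 were not well above background on any muscle array or SHENQI aorta array, and Olfr141 was not on any macroangiopathy aorta array. Scd1 in muscle read 9.72, 10.35 and 13.09 in SHENQI and 10.10, 11.58 and 9.43 in macroangiopathy mice, and the difference between tissues was 0.96 (SE 1.14), which did not pass. Mup1 was well above background on 1 of 6 muscle arrays, and its response in aorta exceeded that in muscle by 1.73 (SE 0.75, adjusted p = 1.0 in limma). Anxa8 had a mean of 9.55 (SD 0.49) in SHENQI muscle and read 11.06, 12.53 and 9.42 in macroangiopathy muscle, opposite in direction to aorta, and the tissues differed by 2.53 (SE 0.88, adjusted p = 1.0 in limma).

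Which genes passed depended on single mice. Without SHENQI arrays 1, 2 or 3 in turn, 575 (3.74%), 541 (3.52%) and 634 (4.12%) genes passed at the unadjusted threshold, against 252 with all 6 arrays, and 129, 156 and 161 of the 252 were among them. The direction moved as well: 342 of the 541 were higher without SHENQI array 2, and 498 of the 634 were lower without SHENQI array 3. Without macroangiopathy arrays 2 or 3 81 (0.526%) and 125 (0.812%) genes passed, and without macroangiopathy array 1 the count was 328 (2.13%). In each of these fits limma called 0 genes after adjustment. Of the 24 leading genes, 19 to 22 still had an unadjusted p below 0.05 in the same direction, which their choice on these 6 arrays favours. Without SHENQI array 2 and macroangiopathy array 3, the arrays with the high lymphocyte genes, 250 genes passed and 91 of the 252 were among them. Scd1 kept its direction throughout, with a log2 fold change from 1.17 to 1.97 over all alternatives.

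**Figure D5:**
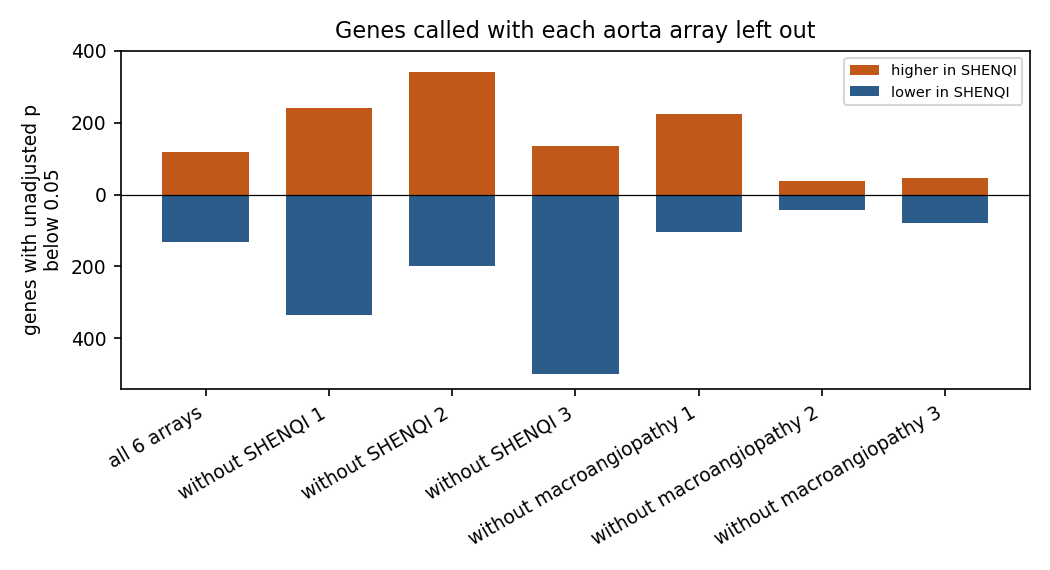
Number of genes with an unadjusted p below 0.05 in limma (bars above 0 for genes higher and below 0 for genes lower in the SHENQI group) with all 6 aorta arrays and with each array left out. Counts run from 81 without macroangiopathy array 2 to 634 without SHENQI array 3, of which 498 are lower.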

How the data were processed

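Total RNA from aorta was labelled with Cy3 and hybridized to Agilent mouse arrays of 45018 spots, 1 array per sample. The deposited files hold the spot intensity before normalization, read with Feature Extraction 10.7.3.1 per the file headers, and a table of the authors' own log2 values, also deposited, served as an alternative. Local background was removed from the median intensity by normexp (offset 0), the 42 arrays were quantile normalized together, log2 was taken and irregular spots were set to missing. The methods of the study name limma's background correction and quantile normalization but not which correction was chosen. The median was used because 34 of the files lack the mean. Probes of a gene were averaged, which gave 21185 genes. Symbols of the files were updated through RefSeq's table of mouse genes. A gene was tested when at least 1 group had some probe of it well above background in its 3 arrays. The 6 arrays were fitted with lmFit and eBayes of limma 3.58.1 in R 4.3.3, which follows the study's methods and their unadjusted threshold, and p-values were adjusted by the Benjamini-Hochberg method over all genes tested. The prior degrees of freedom were 2.35 beside 4 residual ones, and the median standard error was 0.21. A second fit on 12 arrays tested the interaction of treatment with tissue. Slide was added as a random block or, over the 21 aorta arrays, slide 1 as a term.

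The leading genes were the 12 largest increases and 12 largest decreases among genes with an unadjusted p below 0.05, no overlap, an official symbol and a probe well above background throughout the higher group, and 4 genes with other symbols were passed over. In addition, up to 4 genes of each list with an unadjusted p below 0.05, the genes the study names, 2 genes that check the labels and the 5 leading genes with the smallest interaction p were named. The comparison and the gene lists were chosen with earlier results of these data known. Genes named outside this rule as members of a marker list or family were chosen after their values were seen. Arrays with the same scan date in the file headers were taken as the same slide, and slides were numbered in the order of the samples. Intervals are 95% intervals of the fit. Alternatives were other background corrections, normalizations, filters and fits, the authors' value table and each array left out. The fit was tested on simulated data. Probe sequences and mm9 positions are those of the files. Python 3.11.15, pandas 2.3.3 and numpy 2.4.6 were used for tables and matplotlib 3.10.9 for figures. One of the 24 leading genes and some other genes are counted but not reported here by name.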

Additional observations from a re-analysis of the deposited data

How the results depend on the processing

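The 252 genes at an unadjusted p below 0.05 became 507 with no filter on dim probes (21185 genes), 413 in 12 arrays of both tissues with tissue as a term, 1296 with array weights, 108 with slide as a random block in the 6 arrays, 151 with that block in the 21 aorta arrays, and 81 to 634 with an array left out. The replicate numbers did not pair the arrays, with correlations of same-numbered deviations of 0.13, -0.34 and -0.26, and the replicate block gave 170 genes. No alternative fit of the aorta comparison called a gene after adjustment, and the other alternatives gave 190 to 355 genes. Of the 24 leading genes, 14 passed in a fit of all 21 aorta arrays, 10 with slide 1 as a term, 10 with slide as a random block in the 21 arrays and 12 in the fit of both tissues, in which Anxa8 turned to -0.19. Smad7, not called with all arrays, ranged from -0.79 to 0.48 with an array left out and turned to 0.48 without SHENQI array 1. The 11 listed genes that passed became 7 with slide 1 as a term, 6 with slide as a random block in 6 or in 21 arrays, 21 in the fit of both tissues, 83 with array weights, 7 to 55 with an array left out, and 37 without both arrays with high lymphocyte genes, an alternative chosen after seeing the data. The 302 genes of the difference between tissues became 563 with no filter, 201 with detection above background required in all 12 arrays, 142 in a fit of all 42 arrays, 281 with the replicate block, and 185 to 841 with an array left out. After adjustment that difference was called for 1 gene in the authors' value table (Cyp4a14) and for 0 to 1 with an array left out (Serpine2, without SHENQI array 3). The cause of these shifts was not tested.

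Slide could not be fitted as a fixed term, because the groups share no slide. Genes that are not well above background have only a bound in that group.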
